A study of Mus musculus with 6 samples.

Results

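The collagen hydroxylases compared here are 10 genes, the prolyl 4-hydroxylase subunits P4ha1, P4ha2, P4ha3 and P4hb, the lysyl hydroxylases Plod1, Plod2 and Plod3, and the prolyl 3-hydroxylases P3h1, P3h2 and P3h3. The members were matched by gene name, with no threshold on their values, but the family itself was picked with earlier results of these data known. All 10 were found among the 46078 genes counted and passed the filter on low counts that left 16813 genes to test. Bulk RNA sequencing compared growth plate cartilage, dissected from the distal femur and proximal tibia at E18.5, between 3 libraries of genotype Col2a1-Cre; Idh1 LSL/+ (Idh1 mutant) and 3 of genotype Idh1 LSL/+ (control). Both groups carried a mutant Idh1 allele silenced by a lox-stop-lox cassette, and Cre, driven by Col2a1 regulatory sequence, removes that cassette in cells that express Col2a1 or descend from such cells. The Cre transgene was therefore present in every mutant and in no control, so that its own effect cannot be told apart from that of the mutant allele. The methods name control littermates, the labels give replicate numbers without saying whether each replicate was a separate animal, and the p-values measure only the spread between these samples.

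Collagen chains are hydroxylated in the endoplasmic reticulum while they are being made and before the triple helix closes. Prolyl 4-hydroxylase is a tetramer of catalytic alpha subunits and P4hb, also known as protein disulfide isomerase, and the hydroxyproline it makes keeps the helix stable at body temperature. Lysyl hydroxylases prepare lysines for sugar attachment and for the crosslinks between collagen fibrils, and prolyl 3-hydroxylases modify a few prolines with partner proteins. These enzymes use 2-oxoglutarate, oxygen, iron and ascorbate, and mutant IDH1 makes D-2-hydroxyglutarate, which resembles 2-oxoglutarate in structure. RNA counts measure the transcripts of the enzymes and not their activity.

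Levels are in CPM, the counts of a gene per 1000000 counts of its library after TMM scaling. The libraries held between 23445687 and 30415773 counts, and the members had at least 957 counts in each library, well above the limit of detection. Cartilage markers were present (Col2a1 and Acan among them), and so were those of other tissues, the summed level of 5 skeletal muscle markers lying between 12184 and 18786 CPM. The labels call the cells growth plate chondrocytes, but each level is an average over every cell type in the tissue, and fewer cells of a type cannot be told apart from less RNA per cell. Control 3 had the lowest summed level of 6 cartilage markers, 2908 CPM against 4458 to 6648 CPM elsewhere. Col2a1 made up 1923 CPM of that sum. Each of the 6 markers except Sox9 was lowest in control 3, Hapln1 for example at 122 CPM. The Acan level of control 3, 711 CPM, was close to the 731 CPM of control 1. Sox9, at 80.1 CPM in control 3, lay above mutants 2 and 3 (78.2 and 75.1 CPM). Mutant 3 had 26356 counts of Xist, an RNA of the inactive X chromosome, while the other libraries had 0 to 13. Genes of chromosome Y had 512 counts in mutant 3 against 4193 to 5829 in the other libraries. By these counts mutant 3 appears female and the others male, so that sex was not balanced between the groups. The part of sex in the levels of the hydroxylases was not tested.

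The catalytic prolyl 4-hydroxylase subunits P4ha1 and P4ha2 and the lysyl hydroxylase Plod3 had higher RNA levels in all mutant libraries than in all control libraries. P4ha2 was 1.52 times, P4ha1 1.38 times and Plod3 1.28 times the control level, while P4hb and Plod1 lay within 10% of theirs. None of the 10 hydroxylases passed an adjusted p of 0.05 with edgeR's quasi-likelihood test, the main test, which called 0.19% of all tested genes. At an unadjusted p under 0.05 the same test had 3 of the 10, all higher in mutants, against 8.64% of tested genes in either direction and 3.71% in the higher direction. DESeq2, the tool named in the methods, called the same 3 (1.15% of tested genes), and limma-voom called 0 (0.113%). Without the low-count filter edgeR called P4ha1 and P4ha2 (0.903%). In 4 of the 10 the groups did not overlap, each time with the mutants higher, against 6.85% of tested genes in that direction. The fold change was above 1 in 8 of the 10, against 49.3% of tested genes. The median log2 fold change was 0.14 over the 10 members and -0.0026 over all tested genes.

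**Figure D1:**
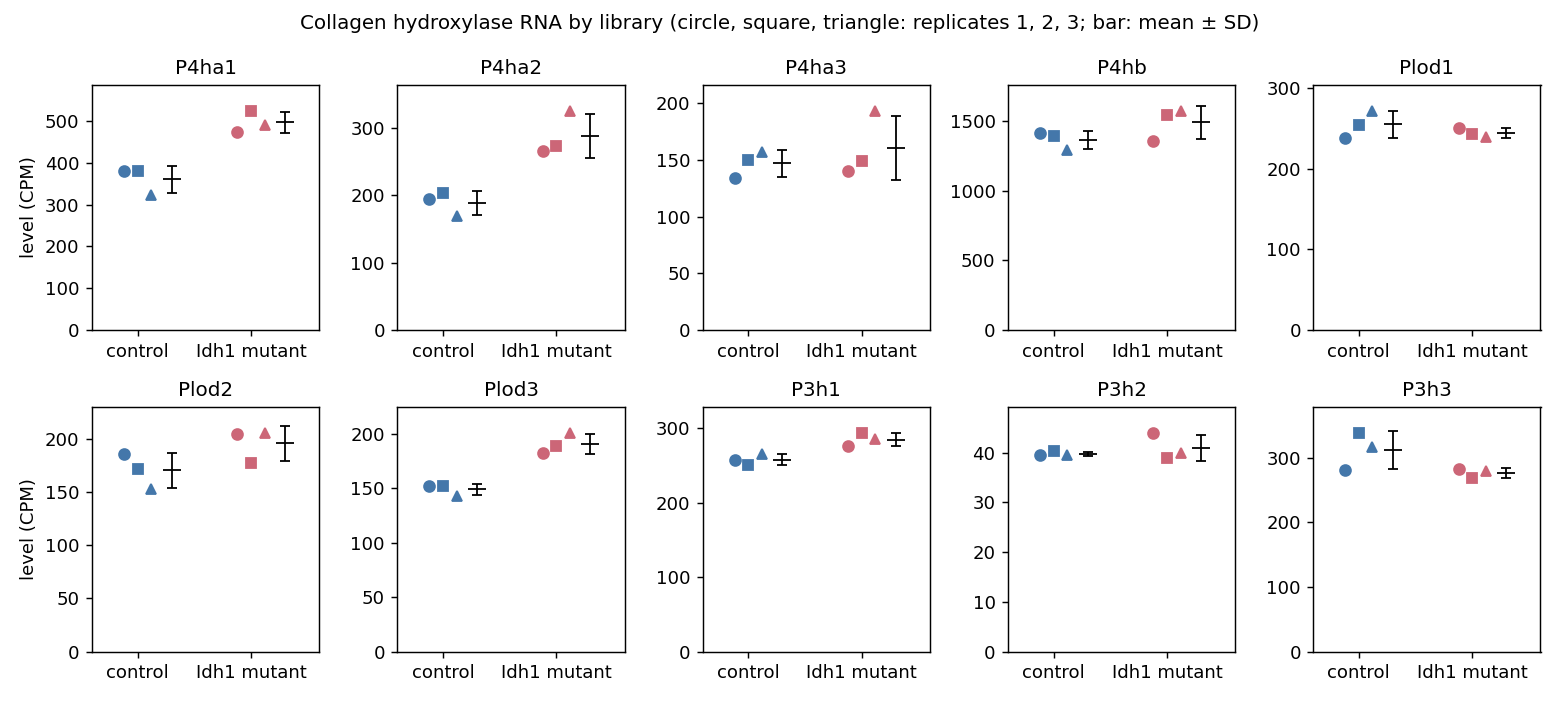
Level of each hydroxylase (vertical axis, CPM, starting at 0) in the 3 control (blue) and 3 Idh1 mutant (red) libraries, with the mean and SD as black bars. The mutant and control points do not overlap for P4ha1, P4ha2, Plod3 and P3h1, and they overlap for the other members.

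P4ha1 (ENSMUSG00000019916, chromosome 10 from 59323296 to 59373304 of GRCm38, forward strand) encodes the catalytic subunit of the most widely expressed form of prolyl 4-hydroxylase. Its level was 379.9, 379 and 323 CPM in controls 1, 2 and 3 and 475, 524 and 492 CPM in mutants 1, 2 and 3. The lowest mutant lay well above the highest control. The log2 fold change was 0.46 (standard error 0.10, edgeR adjusted p = 0.141, DESeq2 adjusted p = 0.00084). Without control 3, which had the lowest level of all, it was 0.39.

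P4ha2 (ENSMUSG00000018906, chromosome 11 from 54100095 to 54131665, forward strand) encodes the alpha subunit of the enzyme form best known from chondrocytes. It had 194, 203 and 169 CPM in controls against 266, 273 and 325 CPM in mutants. Control 3 was again the lowest library, mutant 3 was the highest, and the groups did not overlap. The log2 fold change of 0.61 (standard error 0.11, edgeR adjusted p = 0.0813, DESeq2 adjusted p = 5.35e-05) had the largest size among the 10 members. It was 0.54 without control 3 and 0.51 without mutant 3.

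P4ha3 (ENSMUSG00000051048, chromosome 7 from 100285520 to 100319699, forward strand), the catalytic subunit of a further form of the enzyme, had 134, 149.6 and 157 CPM in controls against 140.1, 149 and 193 CPM in mutants. The groups overlapped, and mutant 3 alone lay above the controls. Its log2 fold change was 0.13 (95% interval -0.15 to 0.41, edgeR) and turned to -0.023 without mutant 3. P4hb (ENSMUSG00000025130, chromosome 11 from 120560298 to 120573253, reverse strand), the beta subunit, which also works alone as a disulfide isomerase, had 1411, 1392 and 1289.8 CPM in controls against 1355, 1545 and 1571 CPM in mutants. Here the groups overlapped as well, and the fold change was 1.09 with a 95% interval from 0.928 to 1.29.

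Counts per kilobase of exon were used to compare levels between genes, since longer transcripts give more reads. The 3 alpha subunits together came to 0.348 ± 0.00909 (SD, n = 3) per P4hb in controls against 0.422 ± 0.0129 (SD, n = 3) in mutants. The library values were 0.339, 0.358 and 0.349 in controls against 0.431, 0.407 and 0.428 in mutants, without overlap. On the log2 scale the difference was 0.28 (exact two-sided permutation p = 0.1, the smallest that 3 against 3 allow, and 0.25 after Benjamini-Hochberg adjustment over the 5 ratios and shares tested). It lay between 0.26 and 0.30 when each library was left out in turn. This ratio is taken within a library and needs no scaling between libraries.

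The share of P4ha1 among the alpha subunits was 52.7% ± 2.64 (SD, n = 3) in controls against 55.1% ± 3.73 (SD, n = 3) in mutants, less than the spread between replicates (exact permutation p = 0.4, adjusted p = 0.667). P4ha2 made up 18.6%, 18.7% and 17.2% in controls against 20.9%, 19.9% and 22.2% in mutants. P4ha3 made up 26.2%, 28.3% and 32.9% against 22.6%, 22.2% and 27.0%, where mutant 3 lay within the control range. The shares of P4ha2 and P4ha3 were chosen after the values were seen and were not tested.

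**Figure D2:**
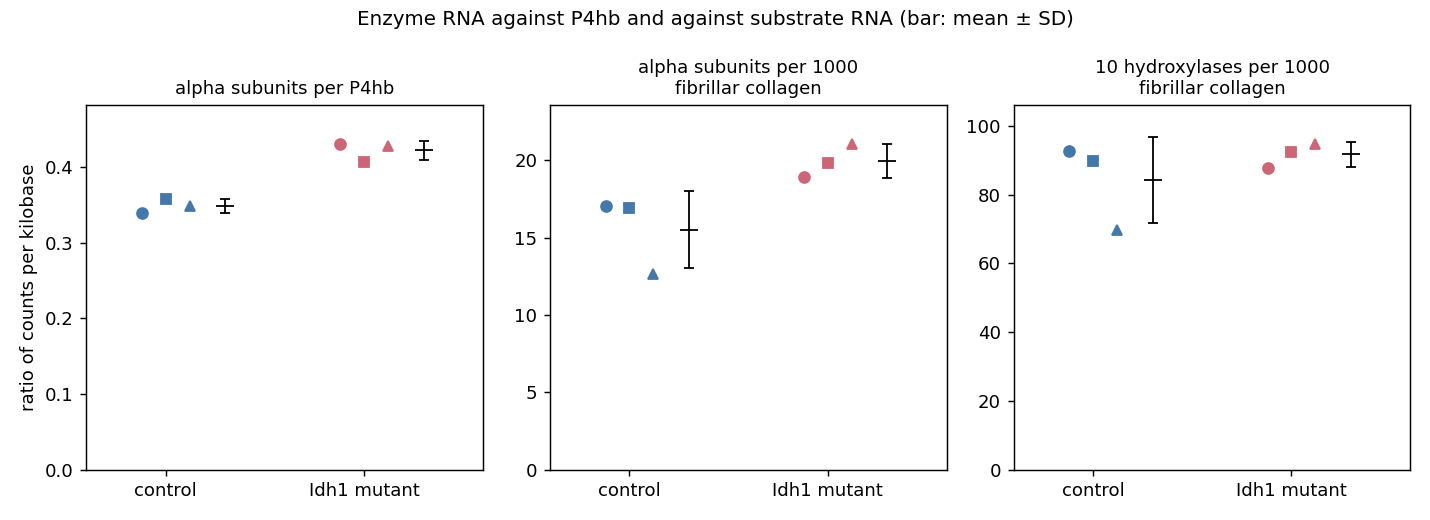
Ratios of counts per kilobase of exon (vertical axes, starting at 0) in each control (blue) and Idh1 mutant (red) library, with mean and SD as black bars. Alpha subunits per P4hb are 0.339 to 0.358 in controls against 0.407 to 0.431 in mutants, whereas the sum of 10 hydroxylases per 1000 fibrillar collagen transcripts overlaps between the groups.

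Plod3 (ENSMUSG00000004846, chromosome 5 from 136987019 to 136996648, forward strand) encodes lysyl hydroxylase 3, which also attaches glucose and galactose to hydroxylysine. Its level was 152, 152 and 143 CPM in controls against 182, 189 and 201 CPM in mutants. All 3 mutants lay above the controls, and mutant 3 was the highest. The log2 fold change was 0.36 (standard error 0.08, edgeR adjusted p = 0.149, DESeq2 adjusted p = 0.00943) and lay between 0.32 and 0.39 when each library was left out. Of the exon length of Plod3, 11.9% is shared with exons of other genes, mainly Znhit1 on the opposite strand. The reads were counted without regard to strand and those that fell on both genes were not counted, so that its level is uncertain to that extent.

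Plod2 (ENSMUSG00000032374, chromosome 9 from 92542223 to 92608428, forward strand) encodes the enzyme that hydroxylates the telopeptide lysines from which stable crosslinks form. It had 186, 172 and 153 CPM in controls against 205, 177 and 206 CPM in mutants. Mutant 2 lay within the control range, and the log2 fold change was 0.20 (95% interval -0.02 to 0.42, edgeR adjusted p = 0.631). It was 0.13 without control 3, the lowest library. Plod1 (ENSMUSG00000019055, chromosome 4 from 147909753 to 147936767, reverse strand), which acts on lysines of the helical part, had 239, 255 and 271 CPM in controls against 251, 242 and 239.8 CPM in mutants. The groups overlapped, and the fold change was 0.959 with a 95% interval from 0.845 to 1.09. With single libraries left out, the log2 fold change of Plod1 ran from -0.11 (without control 1) to -0.010 (without control 3).

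Within the lysyl hydroxylases the share of Plod2 was 30.9% ± 2.51 (SD, n = 3) in controls against 31.7% ± 1.71 (SD, n = 3) in mutants (exact permutation p = 0.7). The difference of 0.772 percentage points turned to -0.496 without control 3. The shares of Plod3 and Plod1 lay in opposite directions, and these values were chosen after they were seen and were not tested. Plod3 made up 32.5%, 32.5% and 31.6% in controls against 35.0%, 37.8% and 37.6% in mutants. Plod1 made up 34.1%, 36.5% and 40.1% in controls against 32.1%, 32.5% and 30.04% in mutants, and neither share overlapped between the groups.

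P3h1 (ENSMUSG00000028641, chromosome 4 from 119232915 to 119248975, forward strand) forms a complex with Crtap and the prolyl isomerase Ppib. It had 257, 251 and 266 CPM in controls against 276, 294 and 285 CPM in mutants. The groups did not overlap, but they lay close together, with a log2 fold change of 0.14 (95% interval -0.03 to 0.32, edgeR adjusted p = 0.67). P3h3 (ENSMUSG00000023191, chromosome 6 from 124841089 to 124857752, reverse strand), which works with P3h4, had 281, 339 and 317 CPM in controls against 282, 268 and 279.6 CPM in mutants. Its log2 fold change was -0.17 (95% interval -0.38 to 0.03, edgeR adjusted p = 0.658), and mutant 1 lay just above control 1. It ran from -0.24 without control 1 to -0.11 without control 2. P3h2 (ENSMUSG00000038168, chromosome 16 from 25959288 to 26105784, reverse strand), best known for its action on basement membrane collagen, was the lowest member in both groups at 39.8 ± 0.432 CPM (SD, n = 3) and 40.9 ± 2.69 CPM (SD, n = 3). Of its exon length, 28.4% is shared with Gm4524 on the opposite strand.

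P3h1 made up 44.9%, 40.3% and 43.1% of the prolyl 3-hydroxylases in controls against 46.2%, 49.2% and 47.5% in mutants. All mutant shares lay above all control shares. The difference was 4.89 percentage points (exact two-sided permutation p = 0.1, the smallest possible, adjusted p = 0.25 over the 5 ratios and shares tested) and ranged from 3.63 to 5.97 when each library was left out. The share of P3h3 was lower by about as much, at 50.4% ± 2.57 (SD, n = 3) in controls against 45.3% ± 1.13 (SD, n = 3) in mutants. The 3 shares add up to the whole, and P3h2 held only 6.81% in controls against 7.08% in mutants. The lower share of P3h3 is therefore not a result separate from that of P3h1.

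**Figure D3:**
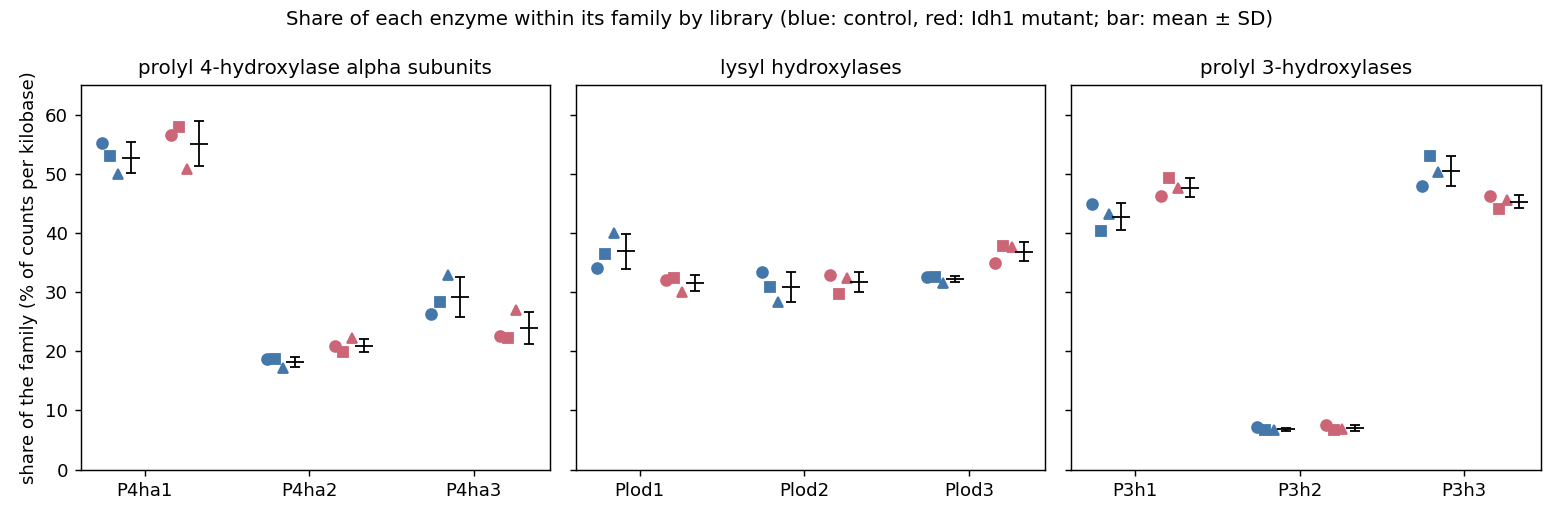
Share of each enzyme among its family (vertical axis, percent of counts per kilobase of exon, starting at 0) in control (blue) and Idh1 mutant (red) libraries, with mean and SD as black bars. The shares of P4ha2, Plod1, Plod3, P3h1 and P3h3 do not overlap between the groups, and those of P4ha1, P4ha3, Plod2 and P3h2 do.

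Per kilobase, P4hb had the highest control level of the 10 at 477 ± 22.8 RPKM (SD, n = 3, CPM per kilobase of exon, computed here). P4ha1 at 87.7 ± 7.99, P3h3 at 79.4 ± 7.42 and P3h1 at 67.1 ± 1.88 RPKM came next. P4ha1 and P3h3 overlapped in the controls, whereas in mutants P4ha1 lay above P3h3 in every library. P4ha3 followed at 48.2 ± 3.95 RPKM and Plod1 at 37.7 ± 2.42 RPKM. Plod3, Plod2 and P4ha2 lay between 30.3 and 33 RPKM with overlapping ranges, and P3h2 was last at 10.7 ± 0.116 RPKM. P4ha2 changed its place in this order, since in mutants it reached 46.2 ± 5.21 RPKM, above the mean of each lysyl hydroxylase.

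The promoter windows of P4ha1, P4ha2 and Plod3, the members with an unadjusted p under 0.05, are shown because P4ha1, P4ha2 and Plod2 are known as targets of hypoxia-inducible factors (HIF). P4hb is shown beside them as a member whose groups overlapped. The windows run from 250 bases before to 50 bases after the RefSeq transcript start (GRCm38.p6), and 8 of the 10 members had one. Plod2 and P3h2 had none, so that the window of Plod2 could not be shown. Capitals mark the HIF core letters ACGTG or GCGTG on either strand, and adjoining matches may overlap.
P4ha1, chr10:59323046-59323345, forward strand: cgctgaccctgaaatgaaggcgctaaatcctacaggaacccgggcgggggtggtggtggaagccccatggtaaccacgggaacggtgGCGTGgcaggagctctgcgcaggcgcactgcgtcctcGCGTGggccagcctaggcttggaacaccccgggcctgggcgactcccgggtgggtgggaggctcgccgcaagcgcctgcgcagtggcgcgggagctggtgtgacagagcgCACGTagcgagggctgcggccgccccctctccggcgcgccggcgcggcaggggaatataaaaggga
P4ha2, chr11:54100674-54100973, forward strand: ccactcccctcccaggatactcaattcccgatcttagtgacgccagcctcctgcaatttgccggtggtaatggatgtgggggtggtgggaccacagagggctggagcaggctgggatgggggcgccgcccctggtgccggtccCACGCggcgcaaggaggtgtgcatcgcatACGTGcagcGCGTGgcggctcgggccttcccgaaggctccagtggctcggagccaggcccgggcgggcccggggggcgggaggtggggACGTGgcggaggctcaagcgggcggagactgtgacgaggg
Plod3, chr5:136986769-136987068, forward strand: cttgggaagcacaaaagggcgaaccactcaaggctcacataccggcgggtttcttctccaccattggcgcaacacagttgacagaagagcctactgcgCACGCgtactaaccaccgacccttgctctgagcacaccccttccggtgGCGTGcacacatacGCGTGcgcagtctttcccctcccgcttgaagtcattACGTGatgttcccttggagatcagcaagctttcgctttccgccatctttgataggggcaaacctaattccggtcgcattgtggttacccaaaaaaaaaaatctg
P4hb, chr11:120573204-120573503, reverse strand: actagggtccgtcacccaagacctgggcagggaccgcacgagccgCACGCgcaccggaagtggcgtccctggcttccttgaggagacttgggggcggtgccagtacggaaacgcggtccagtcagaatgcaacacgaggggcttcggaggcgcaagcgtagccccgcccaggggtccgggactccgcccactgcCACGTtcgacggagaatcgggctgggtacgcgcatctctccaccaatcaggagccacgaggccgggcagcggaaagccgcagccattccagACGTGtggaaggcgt
P4ha2 and Plod3 each held 4 matches, and P4ha1 and P4hb 3 each. Plod1 and both P3h1 windows held 2, and P4ha3 and P3h3 held 0. Of all 32851 windows of this length in the table, 43.8% held at least 1 match, 8.93% held 3 or more and 3.86% held 4 or more. Both cores hold the letters CG, and these shares were not matched for the G and C content of the windows. The amino acid response element TTGCATCA and the longer endoplasmic reticulum stress element, searched on both strands, had 0 matches in the members' windows and were found in 0.895% and 0.119% of all windows. G and C made up 70.3% of the P4ha1 and P4ha2 windows, 67% of that of P4hb and 53.3% of that of Plod3. The letters describe the windows and were not tested against the fold changes.

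Proteins that work with the hydroxylases were read from the same edgeR fit, and 0 of 8 passed the adjusted threshold (0 with DESeq2). Their median log2 fold change was 0.07, and 1 had an unadjusted p under 0.05, against 8.64% of tested genes. P3h4, the partner of P3h3, was the 1, with 150.2, 146 and 130.3 CPM in controls against 161, 169.5 and 179 CPM in mutants (log2 fold change 0.26, edgeR adjusted p = 0.429). Its groups did not overlap, and it lay higher while P3h3 lay lower. Crtap, the partner of P3h1, had 259 ± 13.8 CPM (SD, n = 3) in controls against 259.5 ± 7.11 CPM (SD, n = 3) in mutants. Ppib was at 0.935 times its control level with a 95% interval from 0.799 to 1.09, although 54.2% of its exon length is shared with Snx22. Its log2 fold change of -0.10 was -0.18 without control 3 and -0.0096 without control 2. Serpinh1, the collagen chaperone HSP47, had the highest level of the 8 per kilobase and a fold change of 1.04 (0.849 to 1.28). Fkbp10, a prolyl isomerase needed for lysyl hydroxylation of telopeptides, separated the groups at 419 to 447 CPM in the controls against 466 to 482 CPM in mutants, with an edgeR adjusted p of 0.697. P3h4 and Fkbp10 were the 2 of the 8 without overlap, against 6.85% of tested genes in the higher direction. For the collagen galactosyltransferases Colgalt1 and Colgalt2 and for the isomerase Fkbp14 the groups overlapped.

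**Figure D4:**
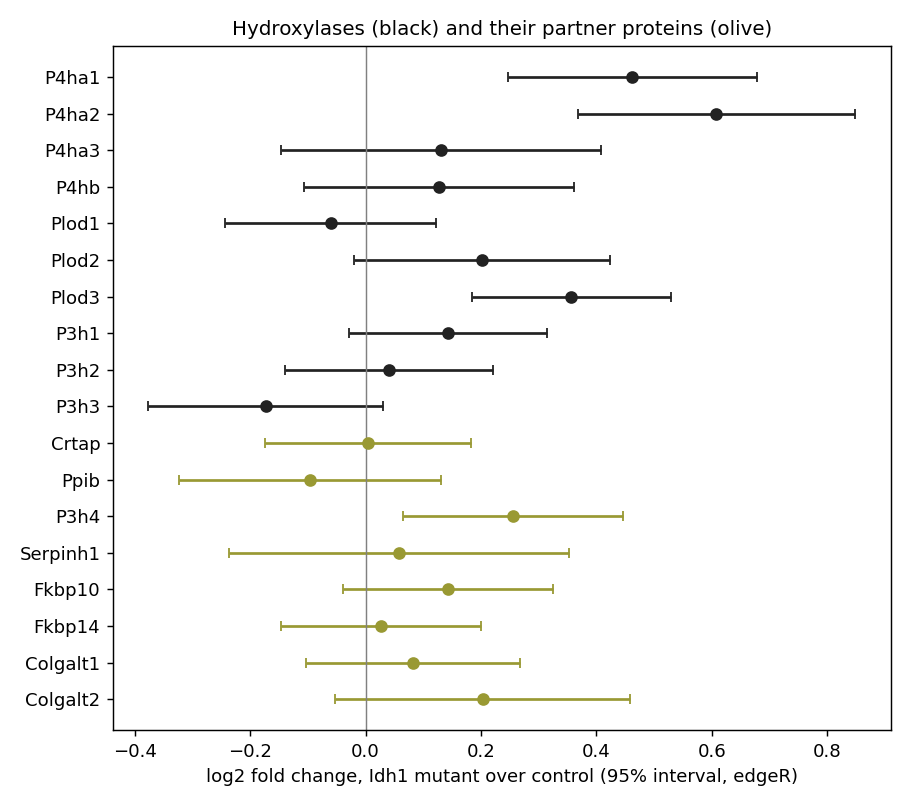
Log2 fold change, Idh1 mutant over control, with its 95% interval (horizontal axis, edgeR, not adjusted for the number of genes) for the 10 hydroxylases (black) and 8 partner proteins (olive). The intervals of P4ha1, P4ha2, Plod3 and P3h4 lie above 0, and those of the remaining genes include 0.

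The collagens on which these enzymes act showed overlapping groups throughout. Of 14 collagen genes 0 passed the threshold with edgeR, 0 had an unadjusted p under 0.05, 0 passed with DESeq2, and the groups overlapped in all 14 (median log2 fold change -0.025). Col2a1, the main collagen of cartilage, had 3240.0, 4280.3 and 1923 CPM in controls against 5245, 3659 and 3972 CPM in mutants, a log2 fold change of 0.45 with a 95% interval from -0.13 to 1.03. Control 3, the library with the lowest sum of cartilage markers (Col2a1 among them), had the lowest level, and the log2 fold change was 0.19 without it and 0.74 without control 2. Col9a1 and Col11a2, whose products join collagen II in cartilage fibrils, had log2 fold changes of -0.43 and 0.30 with overlapping groups. Single libraries moved both values, Col9a1 to -0.035 without control 2 and -0.69 without control 3, and Col11a2 to 0.52 without control 2 and 0.060 without control 3. The alpha subunits came to 17.0, 16.9 and 12.6 transcripts per 1000 of 8 fibrillar collagens in controls against 18.9, 19.8 and 21.1 in mutants, by counts per kilobase and without overlap, a ratio chosen after values were seen. Among those 8, Col1a1 had the highest level per kilobase (control mean 5810 RPKM, against 525 RPKM for Col2a1). The ratio of the alpha subunits to Col2a1 alone was not tested, and its groups overlapped. Col2a1 was at 540 RPKM in control 1 against 874 RPKM in mutant 1, proportionally further apart than any alpha subunit. P4ha1 was at 92.3 against 115 RPKM there, P4ha2 at 31.2 against 42.6 and P4ha3 at 43.9 against 46.0. Mutant 1 thus had a lower ratio than control 1. Mutant 2 had a higher ratio than control 2, with Col2a1 at 610 against 713 RPKM. For the ratio of all 10 hydroxylases to the 8 fibrillar collagens the groups overlapped (log2 difference 0.13, exact permutation p = 0.6), at 84.2 ± 12.5 (SD, n = 3) per 1000 in controls against 91.7 ± 3.56 (SD, n = 3) in mutants. The direction of that ratio turned with Col2a1 alone in the denominator (-0.34), and it was 0.0048 without control 3.

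Of 12 genes that remove the propeptides of collagen or crosslink it, 0 passed the threshold with edgeR or DESeq2. An unadjusted p under 0.05 was found for 1 of the 12, near the share of 8.64% over all tested genes. That gene was Adamts14, a procollagen peptidase, with a log2 fold change of 0.26 and an edgeR adjusted p of 0.557, and with 0.17 without mutant 3. In 2 of the 12, Adamts14 not among them, the groups did not overlap, with the mutants higher, against 6.85% of tested genes. Loxl1, a lysyl oxidase relative, had a log2 fold change of -0.19 (95% interval -0.40 to 0.02). Of 6 genes for ascorbate and iron supply 5 could be tested and 0 passed with edgeR (0 at an unadjusted p under 0.05, and 0 with DESeq2). Tfrc, the transferrin receptor, had 61.1, 57.5 and 44.9 CPM in controls against 52.3, 44.7 and 37.1 CPM in mutants.

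Since P4ha1, P4ha2 and Plod2 respond to low oxygen in many cell types, 12 other genes that hypoxia induces were read beside them. With edgeR and with DESeq2 0 of the 12 passed the adjusted threshold. In edgeR 2 had an unadjusted p under 0.05, both higher in mutants, against 3.71% of tested genes in that direction. The groups did not overlap in 3, each time with the mutants higher, against 6.85% of tested genes. Of the 12, 9 lay higher and 3 lower, and the median log2 fold change was 0.15. Ndrg1 was at 61.3, 55.5 and 57.5 CPM in controls against 74.9, 68.5 and 76.4 CPM in mutants (log2 fold change 0.33, edgeR adjusted p = 0.2). Pgk1, a glycolytic enzyme, had a log2 fold change of 0.17, and its groups did not overlap either. Pdk1, which restrains the entry of pyruvate into the mitochondrial cycle, had 0.20 with overlapping groups, and 0.10 without mutant 1. Car9, a carbonic anhydrase often used as a marker of hypoxia, was 1 of the 3 that lay lower, at -0.34 (95% interval -0.72 to 0.04), and at -0.52 without control 1.

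Markers of other cell types were read from the same fit. Of 5 tendon markers 4 lay below the whole control range in all 3 mutants, against 7.58% of tested genes, and their summed level was 2993 to 3288 CPM in controls against 2004 to 2341 CPM in mutants. Tnmd, a membrane protein of tendon cells, passed the edgeR threshold (log2 fold change -0.81, edgeR adjusted p = 0.0374), and Fmod, Scx and Mkx had an unadjusted p under 0.05, as did 4.93% of tested genes in the lower direction. Tnmd passed in 1 of the 6 edgeR fits with a library left out, the one without control 3, and its adjusted p reached 0.211 in the others. DESeq2 called these 4 tendon genes and 2 of the 5 erythroid genes, Alas2 and Slc4a1, all lower. All 5 erythroid markers were lower without overlap (539 to 1538 CPM against 281 to 416 CPM in sum), among them Alas2 at -1.67, Hbb-bt at -1.37 and Slc4a1 at -1.22 on the log2 scale, and with 0 called by edgeR. Control 2 had the highest erythroid sum, and without it Alas2 was at -1.11 and Hbb-bt at -0.78. The summed osteoblast markers were 319 to 1284 CPM in controls against 1229 to 1962 CPM in mutants, with Dmp1, made by osteocytes, at 82.9, 21.4 and 6.76 CPM against 84.5, 198 and 90.8 CPM. All 5 osteoblast markers lay higher in mutants (median log2 fold change 0.49), with 0 called by edgeR or DESeq2 on all 6 libraries. In edgeR 2 of them, Ibsp and Dmp1, had an unadjusted p under 0.05, against 3.71% of tested genes in the higher direction. Only for Dmp1 did the groups not overlap, against 6.85% of tested genes in that direction. Ibsp had a log2 fold change of 1.32 with overlapping groups (edgeR adjusted p = 0.557), which ran from 0.87 without control 3 to 2.398 without control 1, and that of Dmp1 (1.75, edgeR adjusted p = 0.522) ran from 1.25 without mutant 2 to 3.14 without control 1. Of 5 endothelial markers 2, Kdr and Emcn, separated the groups with log2 fold changes of 0.25 and 0.30, against 6.85% of tested genes in the higher direction. Of the 5, 4 lay higher and 1 lower (median log2 fold change 0.084), and the summed levels overlapped. The summed levels of muscle and osteoclast markers overlapped too. Of 5 muscle markers 3 lay higher and 2 lower in mutants, and of 5 osteoclast markers 2 lay higher and 3 lower. The log2 fold change was 0.23 for Myh8 (0.10 without control 1 to 0.39 without mutant 3) and -0.36 for Ctsk (-0.59 without mutant 2 to -0.20 without mutant 1). Acan, of the cartilage list, had a log2 fold change of 0.20, but of the 6 cartilage markers 3 lay higher and 3 lower (median -0.047). None of these marker genes was at 0 in all libraries, and their part in the levels of the hydroxylases was not tested.

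With each library left out in turn, the log2 fold change lay between 0.39 and 0.50 for P4ha1, between 0.51 and 0.67 for P4ha2 and between 0.32 and 0.39 for Plod3. The edgeR adjusted p stayed above 0.05 in all 6 of these fits for each of the 3 genes, with values from 0.118 to 0.566. With DESeq2, P4ha2 passed in all 6, P4ha1 in 5 and Plod3 in 4. P4ha1 was lost without mutant 2, with an adjusted p of 0.0542, and Plod3 without mutant 2 and without mutant 3. P4hb stayed between 0.09 and 0.19 in the edgeR fits.

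**Figure D5:**
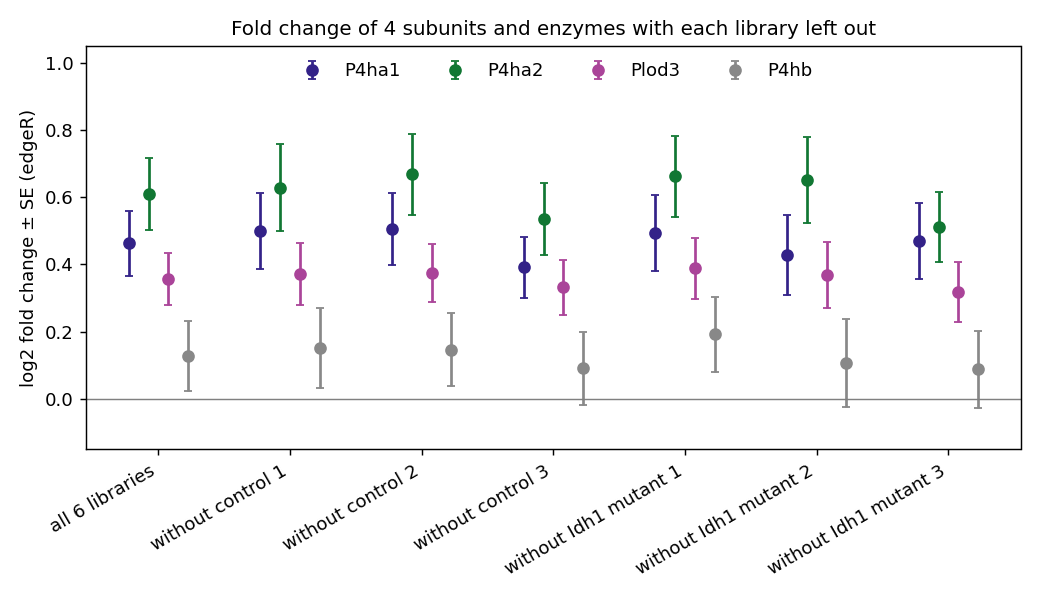
Log2 fold change with its standard error (vertical axis, edgeR) of P4ha1, P4ha2, Plod3 and P4hb with all 6 libraries and with each library left out in turn (horizontal axis). P4ha2 stays between 0.51 and 0.67, and P4hb stays between 0.09 and 0.19.

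Genes whose levels most resembled those of a member over the 6 libraries were sought among 10022 genes with a mean of at least 10 CPM, by Pearson's r of log2 CPM. For P4ha1 they were Gimap4 (r = 0.996) and Etnk1 (r = 0.995), and 136 genes had an r above 0.9. For P4hb they were Clns1a (r = 0.996) and Sec23b (r = 0.994), a coat protein of vesicles that leave the endoplasmic reticulum. For Plod2 they were Gpr137 (r = 0.994) and Ikbkb (r = 0.993), and for P3h1 Psmc5 and Notch4 (r = 0.993 and 0.992). With 6 libraries and so many genes, values of this size describe these libraries only.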

How the data were processed

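RNA of dissected growth plate cartilage was sequenced in 3 control and 3 Idh1 mutant libraries, grouped by their labels. The labels give E18.5 as the age, and a text on animal care gives 2 months. Per the submitters' processing notes and methods, poly(A) RNA was made into stranded libraries, and reads were trimmed (Trim Galore 0.6.4), mapped to GRCm38 (STAR 2.6.1d) and counted over exons (featureCounts 1.6.4). Per the file headers strand was ignored. The deposited values are raw, whole-number read counts per gene.

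Counts were filtered with filterByExpr (minimum count 10, minimum total 15), scaled by TMM and tested with edgeR 4.0.16 in R 4.3.3 (quasi-likelihood, genotype only, since litters are not in the labels), with Benjamini-Hochberg adjustment over 16813 genes and a threshold of 0.05. Standard errors and 95% intervals come from the quasi-likelihood F statistic. RPKM, shares and ratios were computed from counts and the exon lengths in the files, which sum all annotated exons. Single measures had exact two-sided permutation tests. The edgeR, DESeq2 and limma functions were tested on simulated counts. No library was a repeat of another, since each pair within a group varied beyond counting noise (chi-square over its degrees of freedom, 11.6 to 45.1).

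The members and the gene lists were chosen with earlier results of these data known. The genes named were the members, their 8 partners, called genes and up to 4 genes with the lowest p of each other list, and the 2 genes most like each of 4 members. Alternatives were DESeq2 1.42.0, limma-voom (limma 3.58.1), upper-quartile factors, other low-count filters, the replicate number as a block, and each library left out. DESeq2 with libraries left out was added after values were seen. Promoter windows came from the RefSeq table (GRCm38.p6). Protein sequences were not used here. Figures were drawn with matplotlib 3.10.9.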

Additional observations from a re-analysis of the deposited data

How the results depend on the processing

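All tested genes called numbered 32 in the main test, 193 with DESeq2, 19 with limma-voom, 259 without a low-count filter, 3 with edgeR and the replicate number as a block, and 96 with DESeq2 and that block. Hydroxylases called numbered 0, and 3 with DESeq2, 2 without the low-count filter (P4ha1 and P4ha2) and 2 with DESeq2 and the block (P4ha1 and P4ha2). Leaving out single libraries gave 3 to 17 called genes with edgeR and 108, 120, 138, 142, 174 and 244 with DESeq2, and 0 and 1 to 3 hydroxylases. Deviations of same-numbered samples from their group means had correlations of -0.217, 0.0171 and -0.209 over 10022 genes. With 3 libraries per group and no litters in the labels, these values cannot decide whether the replicate numbers mark littermates. The block called 0 hydroxylases with edgeR and left Tnmd above the threshold (edgeR adjusted p = 0.19). Of 70 member results under the 7 other settings 63 kept direction and side of the threshold and 7 newly passed it. Over the fits with a library left out, the share of P4ha1 differed by 1.02 to 4.53 percentage points, that of Plod2 by -0.496 to 2.01 and that of P3h1 by 3.63 to 5.97, the log2 ratio to fibrillar collagens by 0.0048 to 0.21 and that to P4hb by 0.26 to 0.30. The share of Plod2 reversed without control 3 (-0.496), and the ratio to collagens reversed with Col2a1 alone (-0.34). P4ha3 reversed without mutant 3 (-0.023 with edgeR, whose range was -0.023 to 0.22, and -0.022 with DESeq2), P3h2 without mutant 1 (-0.013, range -0.013 to 0.082, and -0.016), Fkbp14 without mutant 3 (-0.018, range -0.018 to 0.068, and -0.017) and Serpinh1 without control 3 (-0.0030, range -0.0030 to 0.16, and -0.0043). Crtap, at 0.0038, reversed without control 1 (-0.032, range -0.032 to 0.050, and -0.031), without mutant 2 (-0.013 and -0.018), with DESeq2 without control 3 (-0.0012) and without the low-count filter (-0.00022). With 5 libraries the exact test cannot go below 0.2. What lay behind these changes was not tested. Depth did not limit the members, since 3 counts came to at most 0.128 CPM in a library (counting error only).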
